A study of Mus musculus with 4 samples.

Results

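The variable (V) segments of the T-cell receptor alpha and beta chains, Trav and Trbv, were examined in the bone marrow of TLR9-/- and WT mice. The members are all genes of the feature list whose symbols start with Trav or Trbv and that had at least 1 unique molecular identifier (UMI, a tag that marks a captured RNA molecule) over the 4 libraries. Of 163 such symbols among 31053 genes, 96 were members, 72 Trav and 24 Trbv, with 87 and 80 detected in TLR9-/- libraries 1 and 2 and with 69 and 43 detected in WT libraries 1 and 2. Libraries of transcript 5′ ends were made from bone marrow mononuclear cells, which the study obtained by flushing femur and tibia and by Ficoll. For osteoclast cultures it also describes an overnight culture with the growth factor M-CSF before Ficoll. Its single-cell methods do not say whether that step was used. Each library was from 1 C57BL/6 mouse, 2 of genotype TLR9-/- and 2 wildtype. The study ran 2 experiments with 1 mouse per genotype in each, and the labels do not say which libraries shared an experiment. Neither age nor sex is given in the labels, no treatment is named, and how the TLR9-/- line was made is not given in the sources used here beyond a disrupted allele detected by genotyping PCR. The study housed and bred the genotypes in different cages, so that cage and genotype cannot be told apart. Values are given throughout for TLR9-/- libraries 1 and 2 and then for WT libraries 1 and 2, and every value in a class of cells refers to cells that passed the filters.

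A T cell builds its receptor by cutting and joining gene segments: a V segment is joined to a J segment in the alpha chain, and to a D and a J segment in the beta chain. The joint forms the loop that touches the antigen, while the V segment itself gives the remaining contacts with the antigen and with the major histocompatibility complex molecule that holds it. As a rule a T cell and its descendants carry a single joined beta chain, so the V segments found over many cells give a coarse picture of the repertoire. Some T cells use nearly fixed chains: invariant natural killer T cells combine Trav11 with segments of the Trbv13 family, Trbv29 or Trbv1, and mucosal-associated invariant T cells use Trav1. Some Trav segments carry "dv" in their symbol since they can also be joined to the delta chain of gamma delta T cells. The 5′ end of a receptor transcript is its V segment, which 5′ libraries read. The UMI tables do not separate a joined transcript from one of an unjoined V segment.

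The germline sequences show what distinguished the members in these counts (GENCODE M21 on GRCm38, forward strand, 5′ to 3′). Trbv13-2 and Trbv13-3 are shown because they were the first and the third Trbv segments by UMIs and differed sharply in their UMIs outside T cells. Their second exons, 294 bases each, differed at 24 positions, which are in capitals (91.8% identity), and the longest stretch shared without a difference was 50 bases.
Trbv13-2, chr6:41121539-41121832: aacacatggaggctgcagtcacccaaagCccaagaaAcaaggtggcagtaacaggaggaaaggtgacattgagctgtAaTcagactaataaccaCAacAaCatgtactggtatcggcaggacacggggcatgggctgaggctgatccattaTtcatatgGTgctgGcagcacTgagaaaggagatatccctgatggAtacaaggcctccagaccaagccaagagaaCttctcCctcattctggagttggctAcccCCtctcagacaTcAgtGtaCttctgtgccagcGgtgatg
Trbv13-3, chr6:41130292-41130585: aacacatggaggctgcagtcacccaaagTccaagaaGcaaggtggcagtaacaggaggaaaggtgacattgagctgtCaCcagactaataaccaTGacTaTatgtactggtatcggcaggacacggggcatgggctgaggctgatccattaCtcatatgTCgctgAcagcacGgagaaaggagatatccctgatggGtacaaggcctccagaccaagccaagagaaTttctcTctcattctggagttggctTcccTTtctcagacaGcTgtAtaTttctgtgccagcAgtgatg
Trav11 is shown because it marks invariant natural killer T cells. Its second exon is identical over its first 290 bases to that of its copy Trav11d (chr14:52824623-52824912). Only the last base, in capitals, is absent from the copy.
Trav11, chr14:53519569-53519859: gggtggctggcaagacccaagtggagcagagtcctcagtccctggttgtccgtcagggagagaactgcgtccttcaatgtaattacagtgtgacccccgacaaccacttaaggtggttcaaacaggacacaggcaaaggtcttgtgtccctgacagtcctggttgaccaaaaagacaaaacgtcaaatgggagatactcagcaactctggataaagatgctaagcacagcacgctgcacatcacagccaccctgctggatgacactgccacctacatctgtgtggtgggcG
The 30 bases at the germline end of the 10 leading Trbv segments and of both leading dv segments are shown because the junction starts there. Capitals mark the conserved cysteine codon. It was found as the last in-frame cysteine codon with a tyrosine codon directly before it, or with a further codon between them.
Trbv13-2, chr6:41121803-41121832: catcagtgtacttcTGTgccagcggtgatg
Trbv1, chr6:40891856-40891885: cagaaccttgtacTGCacctgcagtgcaga
Trbv13-3, chr6:41130556-41130585: cagctgtatatttcTGTgccagcagtgatg
Trbv15, chr6:41141629-41141658: agctgtgtatctgTGTgccagcagtttagc
Trbv3, chr6:41048799-41048828: gtgtacttcTGTgccagcagcttagccaca
Trbv13-1, chr6:41116439-41116468: catctttgtacttcTGTgccagcagtgatg
Trbv17, chr6:41163527-41163556: tgccatgtacctcTGTgctagcagtagaga
Trbv16, chr6:41152201-41152230: agcggtgtatcttTGTgcaagcagcttaga
Trbv29, chr6:41271852-41271881: atctgtgtacttcTGTgctagcagtttatc
Trbv12-2, chr6:41119335-41119364: tctgccgtgtacttcTGTgccagctctctc
Trav13-4-dv7, chr14:53757892-53757921: actcaggcacttatctcTGTgctatggaac
Trav15-1-dv6-1, chr14:53560218-53560247: gaaagtatttcTGTgctctctgggagctgg

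The Trbv segments lie on chromosome 6 and the Trav segments on chromosome 14, and a segment's detection was set against its likeness to other segments. All 22 annotated Trbv genes were detected, and the 11 Trbv symbols at 0 were pseudogenes. Of the 108 Trav genes, 40 were at 0. The Trav locus holds families repeated in blocks, whose copies carry d or n in their symbols (chr14:52683964-53082520 and chr14:53091346-53375279). To describe this, every segment transcript was divided into windows of 100 bases, and the share of windows found in no other segment was taken as its uniqueness. Of the 35 Trav genes without a unique window, 0 were detected. Of the 17 with up to 50% unique windows, 14 were detected, with a median of 3 UMIs in Cd3-positive cells, while all 37 genes above 50% and below 100% were detected, with a median of 9. Of the 19 with unique windows only, 17 were detected, with Trav18 and Trav23 at 0. The 55 segments without a copy letter held 593 of 779 Trav UMIs (76.1%), the 39 d copies 89 (11.4%) and the 34 n copies 97 (12.5%). The d and n copies were thus represented by 16 and 11 members, and what they contributed to the repertoire cannot be told apart from reads lost between identical copies.

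The libraries differed in depth and makeup. Between 8895 and 10781 cells per library passed the filters, 39167 of 40545 barcodes, with a median of 1759 to 3618 UMIs per cell. Tlr9 itself had 41, 48, 120 and 97 UMIs, or 0.817, 0.750, 3.84 and 2.34 CPM (UMIs of a gene per 1e6 UMIs of the cells, here without further scaling). Passing cells of any pair of libraries shared 112 to 185 barcodes, and of Cd3-positive cells only 2 barcodes were shared, between TLR9-/- library 1 and WT library 1. T cells were taken as cells with at least 1 UMI of Cd3d, Cd3e or Cd3g, the signalling chains of the receptor. There were 1720 such cells, 764 and 446 from TLR9-/- marrow and 309 and 201 from WT marrow. Cells with at least 2 UMIs of genes of another lineage (B, plasmacytoid dendritic, monocyte or neutrophil) made up 19.5%, 33.0%, 31.7% and 56.2% of them. WT library 2 stood apart in this respect, mainly through the neutrophil genes Ngp and Camp (91 of its 201 cells). Genotype values below that it sets are given with and without it for Cd3-positive and CD8 cells. For CD4 and NK-like cells no fit without it was run. Natural killer cells were not among these lineages. Ncr1, a gene of theirs, was in 135 of the 1720 cells (79, 27, 23 and 6), which were kept. A Trbv UMI was in 29 of the 135. No doublet caller was run.

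Cd3-positive cells held 3136 Trbv and 779 Trav UMIs. Trbv UMIs numbered 1297, 1153, 508 and 178 by library, and Trav UMIs 329, 307, 114 and 29. A Trbv UMI was found in 902 of 1720 cells (52.4%) and a Trav UMI in 412 (23.95%). Trbv was also the deeper chain within a cell: cells with a Trbv UMI had 3.48 on average (median 2, highest 31), and cells with a Trav UMI had 1.89 (median 1, highest 13). Natural killer cells gave the background, since they transcribe the beta constant genes Trbc1 and Trbc2 but do not join V segments. In 263 cells with Ncr1, the natural killer receptor NKp46, and without Cd3, 155 Trbc UMIs stood beside 2 Trbv and 0 Trav UMIs, or 0.0129 Trbv UMIs per Trbc UMI. In Cd3-positive cells the same ratio was 1.67, and in the CD4, CD8 and NK-like classes below it was 2.05, 1.77 and 2.01. Among cells without Cd3 it was 1.33, with 2.92 where Cd79a or Cd79b was present and 2.83 where Lyz2 or Ngp was. The last values rested on 59 and 83 Trbc UMIs. The ratio thus set Cd3-positive cells apart from the Ncr1 cells, but not from these.

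The share of Cd3-positive cells with a V segment was compared between genotypes after each cell was brought to 1000 UMIs by calculation, which left 706, 437, 276 and 194 cells. A Trbv UMI was then expected in 41.5% and 38.3% of the TLR9-/- cells and in 38.9% and 23.3% of the WT cells. The means were 39.9% ± 2.29 and 31.1% ± 11.1 (SD, n = 2 libraries per genotype), and the groups overlapped (exact permutation test, two-sided, p = 0.67). For Trav the shares were 14.2% and 17.6% against 12.5% and 4.05%, with means of 15.9% ± 2.40 and 8.26% ± 5.95 (exact permutation test, p = 0.33, the smallest that 2 libraries against 2 allow). Both Trav values were higher in TLR9-/- libraries, but WT library 1 lay closer to TLR9-/- library 1 than to the other WT library. With cells brought to 2000 UMIs the Trav shares overlapped, at 18.7% and 21.8% against 18.8% and 6.27%. As deposited, the shares were 55.2% and 53.6% against 54.0% and 36.8% for Trbv and 22.6% and 33.2% against 23.9% and 8.46% for Trav. WT library 2 was the lowest in every case. Without it, the difference of the thinned means fell from 8.81 to 0.989 percentage points for Trbv and from 7.60 to 3.40 for Trav, and without WT library 1 these were 16.6 and 11.8. WT library 2 was also the library with most cells of other lineages in the gate. Without those cells the thinned Trbv shares were 48.9% and 51.5% against 50.2% and 40.8%, a difference of 4.64 points (exact permutation p = 0.67), and the Trav shares 16.6% and 23.99% against 16.5% and 7.26%, a difference of 8.42 points (exact permutation p = 0.33). WT library 2 was thus still the lowest, and the Trbv difference was smaller while that of Trav was not.

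Cells with a constant gene were looked at on their own, a choice made after seeing the data. Of the 1720 cells 611 held no UMI of Trac, Trbc1 or Trbc2 (252, 136, 131 and 92), and a Trbv UMI was in 31.0%, 19.1%, 28.2% and 5.43% of them. Among the other 1109 cells a Trbv UMI was in 67.2% and 68.7% of the TLR9-/- cells and in 73.0% and 63.3% of the WT cells, with means of 67.9% ± 1.08 and 68.2% ± 6.88 (SD, n = 2). After thinning these were 50.2% and 48.9% against 53.0% and 39.7%, a difference of 3.19 points (exact permutation test, p = 1.0). The Trbv share of cells with a constant gene therefore overlapped between the genotypes, and their means as deposited differed by less than either SD. After thinning, the Trav shares of these cells were 17.1% and 21.3% against 18.6% and 6.97%, which overlapped too (exact permutation test, p = 0.67).

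Each cell was assigned the segment with most UMIs of a chain, and cells with a tie were left out, which gave a Trbv segment to 876 cells (408, 233, 165 and 70) and a Trav segment to 392 (163, 143, 70 and 16). Trbv13-2, a widely used beta segment of C57BL/6 mice, led in every library. It was assigned in 91 and 39 TLR9-/- cells and in 24 and 16 WT cells. These were 22.3% and 16.7% against 14.5% and 22.9% of assigned cells, so the genotypes overlapped, and 19.4% over all cells (exact 95% binomial interval 16.8% to 22.2%, counting error only). Trbv13-3 followed with 81 cells (7.84%, 9.87%, 11.5% and 10.0%). Trbv1, which stands apart from the rest of the Trbv genes at the start of the locus, was assigned in 61 cells (8.09%, 4.72%, 6.67% and 8.57%). Trbv13-1 and Trbv3 were assigned in 60 cells each. The 3 members of the Trbv13 family were together assigned in 35.5% of cells, with 37.3%, 33.5%, 33.3% and 37.1% by library. The family share thus overlapped between genotypes.

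**Figure D1:**
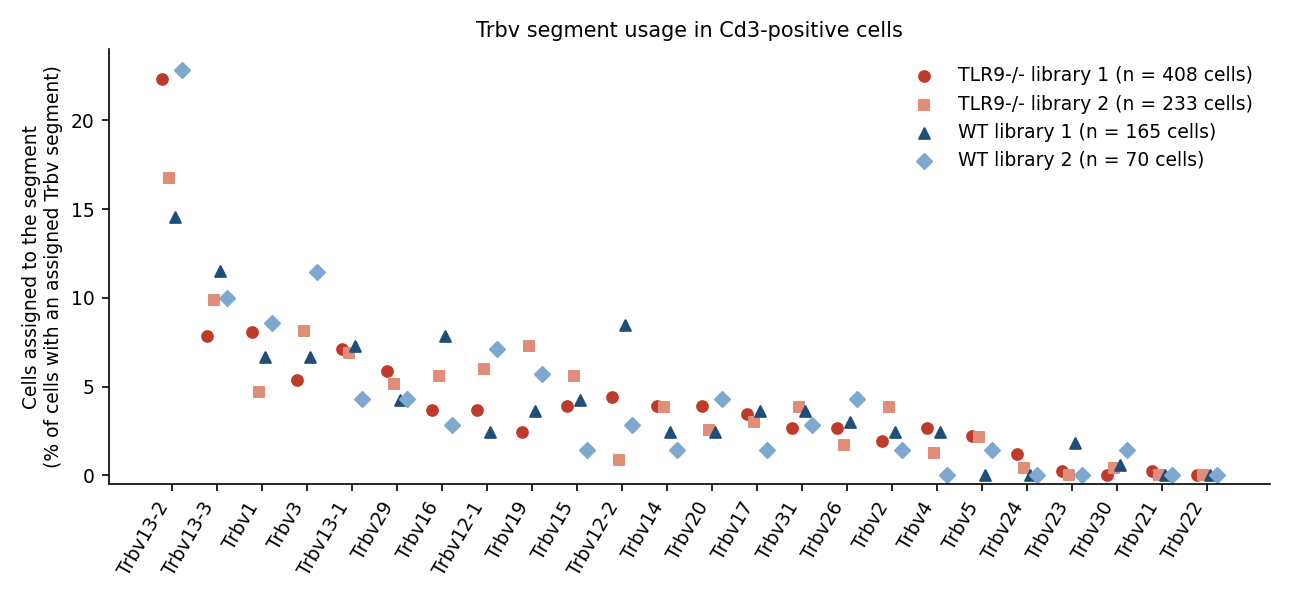
Percentage of Cd3-positive cells with an assigned Trbv segment that carry each of the 24 Trbv members, ordered by cells over all libraries, with 1 point per library (red, TLR9-/-; blue, WT). Trbv13-2 is the highest segment in each library, between 14.5% and 22.9%, and the order of the following segments changes between libraries.

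By UMIs, the 10 leading Trbv segments held 78.8% of Trbv UMIs and 71.0% of assigned cells. Trbv13-2 had 574 UMIs (261, 198, 70 and 45), Trbv1 351 (181, 100, 51 and 19) and Trbv13-3 264 (91, 105, 51 and 17). Trbv15 had 239 (94, 110, 30 and 5), Trbv3 227 (78, 88, 46 and 15) and Trbv13-1 193 (80, 79, 27 and 7). Trbv17 (191), Trbv16 (182), Trbv29 (140) and Trbv12-2 (111, as many as Trbv14) closed the list. UMIs and cells ranked these segments differently, because the number of UMIs per positive cell was 6.82 for Trbv17, 5.98 for Trbv15 and 5.16 for Trbv1, against 2.69 for Trbv13-2 and 1.76 for Trbv12-2. Trbv17 was accordingly assigned in 28 cells only and Trbv15 in 37. Of 654 cells with at least 2 Trbv UMIs, 120 (18.4%) held more than 1 Trbv segment, so the assignment of a single segment is a simplification in those cells. Over the 24 Trbv members, the shares of any pair of libraries correlated with a Pearson coefficient of 0.80 to 0.91 and a Spearman coefficient of 0.73 to 0.85. These are descriptions: the points share base composition, copy number and mapping.

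Evenness of usage was measured by the repeat probability, the chance that a pair of cells drawn from a library carries the same segment. For Trbv it was 8.59% and 7.23% with TLR9-/- and 6.81% and 8.90% with WT. The means were 7.91% ± 0.963 and 7.86% ± 1.48 (SD, n = 2), and the exact permutation test gave p = 1.0. For Trav it was 2.07% and 2.15% against 2.03% and 0 in WT library 2, where 16 cells had an assigned Trav segment (exact permutation p = 0.33). The Trbv means were closer than either SD, and the Trav difference came from WT library 2, without which the 3 values lay between 2.03% and 2.15%.

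Trav usage was spread over many more segments. The 10 leading Trav segments accounted for 39.0% of Trav UMIs and 32.1% of assigned cells. Trav12-2 led with 42 UMIs (24, 15, 3 and 0) and was assigned in 20 cells. Trav13-4-dv7 had 37 UMIs (19, 12, 5 and 1), Trav3-3 35 (6, 21, 6 and 2) and Trav13-1 32 (15, 11, 6 and 0). None of these reached in UMIs the tenth Trbv segment. Trav15-1-dv6-1 had 31 UMIs (13, 17, 1 and 0), Trav14-2 27 (15, 2, 10 and 0) and Trav14n-3 27 (13, 11, 1 and 2). Trav4-3 had 26 (4, 20, 2 and 0), Trav9-1 24 (5, 16, 2 and 1) and Trav12-1 23 (5, 9, 7 and 2). WT library 2 held at most 2 UMIs of any of these 10, and differences between genotypes in single Trav segments were not detectable at this depth. By family, the 10 Trav13 members were assigned in 59 cells (15.1%), the Trav12 members in 42, and the Trav14 and Trav7 members in 40 each.

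Usage was set against the co-receptors next. Among Cd3-positive cells with a UMI of Trac, Trbc1 or Trbc2, CD4 T cells were those with Cd4 and without Cd8a or Cd8b1, and CD8 T cells the reverse. NK-like T cells were those with Trac and Klrb1c, the natural killer receptor NK1.1, and without Cd4, Cd8a or Cd8b1. This gave 19, 40, 17 and 7 CD4 cells, 136, 82, 31 and 27 CD8 cells, and 41, 11, 25 and 6 NK-like cells, while 664 cells with a constant gene fell in no class. The CD40 ligand gene Cd40lg, a CD4 T-cell marker that these gates did not use, was in 22.9% of CD4 and 2.17% of CD8 cells, and the regulatory T-cell factor gene Foxp3 was in 12.05% of CD4 cells. NK-like cells held the cytotoxic granule gene Nkg7 (92.8%), the interleukin receptor chain Il2rb (78.3%) and the chemokine Xcl1 (63.9%). Zbtb16, the transcription factor that defines invariant natural killer T cells, was seen in 3 of 83 NK-like cells (3.61%), and Ncr1 in 12 (14.5%). The class is therefore named by its gate and not as invariant natural killer T cells.

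Trbv13-2 was the leading segment of every class. It was assigned in 14 of 65 CD4 cells (21.5%, exact 95% binomial interval 12.3% to 33.5%), 30 of 215 CD8 cells (14.0%, 9.62% to 19.3%) and 17 of 61 NK-like cells (27.9%, 17.1% to 40.8%). By library the CD4 cells with it numbered 4, 8, 2 and 0, the CD8 cells 13, 11, 1 and 5, and the NK-like cells 10, 0, 5 and 2. TLR9-/- library 2 thus contributed none of the NK-like Trbv13-2 cells, from 7 assigned cells. Trbv29 made up 1.54% of CD4, 4.65% of CD8 and 11.5% of NK-like cells (1, 10 and 7 cells), and Trbv1 4.62%, 7.91% and 9.84% (3, 17 and 6 cells). All of these intervals overlapped between the classes. Trbv3 was assigned in 12.3% of CD4, 5.58% of CD8 and 11.5% of NK-like cells, and Trbv13-3 in 9.23%, 12.1% and 6.56%. Only 4 Trbv segments and no Trav segment were assigned in at least 20 cells of the CD4 and CD8 classes together. The difference in mean share, CD8 minus CD4, was −7.03 percentage points for Trbv3, −2.16 for Trbv13-2, 1.96 for Trbv1 and 2.58 for Trbv13-3. That of Trbv13-2 was −12.1 without WT library 2 and 3.22 without TLR9-/- library 1, so its sign rested on single libraries. Without WT library 2 the other differences were −4.75 for Trbv3, 0.767 for Trbv1 and 1.59 for Trbv13-3.

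**Figure D2:**
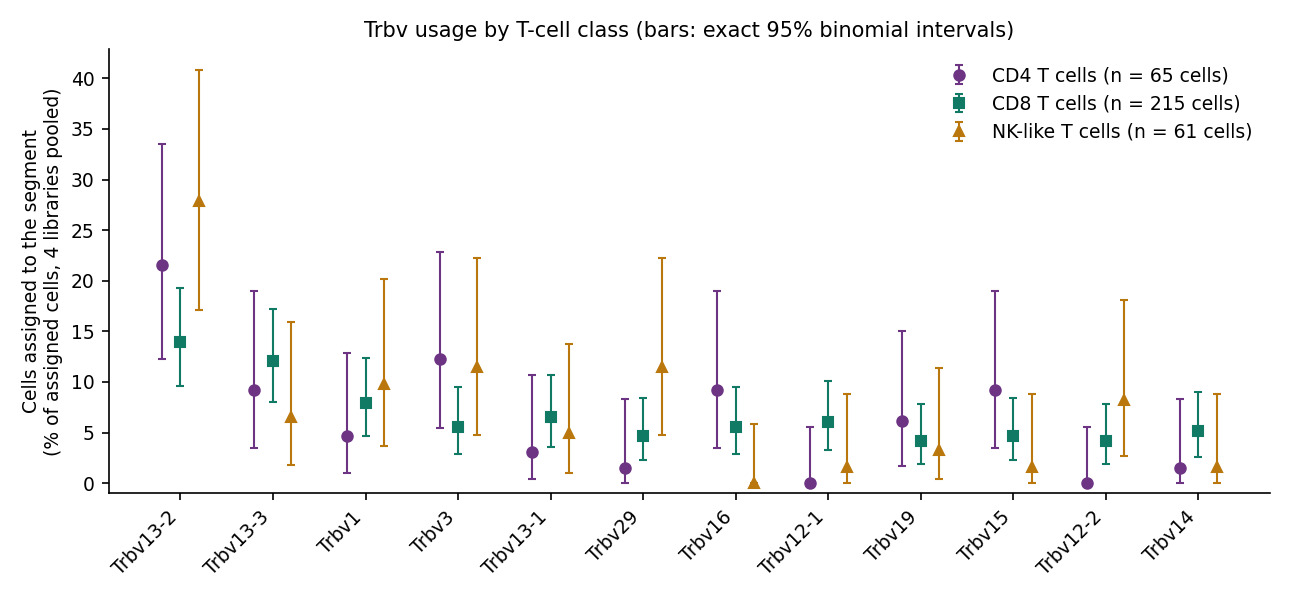
Percentage of CD4, CD8 and NK-like T cells with an assigned Trbv segment that carry each of the 12 Trbv segments found in most cells, over the 4 libraries together. Bars are exact 95% binomial intervals and cover counting error only. Trbv13-2 is the highest point in each class, from 14.0% in CD8 to 27.9% in NK-like cells, and the intervals overlap.

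Some segments were absent from a class, and these were chosen after their values were seen. Trbv12-1 was assigned in 13 of 215 CD8 cells (6.05%; 4, 8, 0 and 1 by library) and in 0 of 65 CD4 cells, which allows a share of up to 4.62%. Trbv26, Trbv4 and Trbv12-2 were assigned in 7, 8 and 9 CD8 cells (3.26%, 3.72% and 4.19%) and in 0 CD4 cells. Trbv16 was assigned in 6 CD4 and 12 CD8 cells and in 0 of 61 NK-like cells, which allows up to 4.92%. Each of these limits lay within the interval of the class that held the segment. The intervals cover counting error in pooled cells only, and whether an absence was due to sampling was not tested.

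The alpha segments named for invariant T cells, Trav11 and Trav1, were rare. Trav11 had 3 UMIs in all, 2 in TLR9-/- library 1 and 1 in TLR9-/- library 2, none of them in an NK-like cell, and Trav11d was at 0. Trav11 has unique windows over 0.4% of its length, as its sequence above shows, so most of its reads could have been shared with the copy, and the absence of a UMI is not absence of the segment. Trav1, with unique windows only, had 8 UMIs (3, 0, 1 and 4) in 4 assigned cells, of which 2 were CD8 and 1 NK-like. Trbv19, a partner of Trav1 in mucosal-associated invariant T cells, was assigned in 37 cells (10, 17, 6 and 4), of which 4 were CD4, 9 CD8 and 2 NK-like. Trbv13-1 was assigned in 2 CD4, 14 CD8 and 3 NK-like cells.

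Genotypes were compared by summing the UMIs of a class per library and fitting all genes (edgeR quasi-likelihood test with Benjamini-Hochberg adjustment, 2 libraries against 2, levels in CPM after TMM scaling). No term for the experiment was in the fit. In Cd3-positive cells, 19 members passed the filter on low counts, 18 Trbv and Trav14-2. Of these, 0 passed the adjusted threshold, and 0 had an unadjusted p below 0.05, while over 8861 genes 5 (0.0564%) and 335 (3.78%) did; DESeq2 called 17 genes and 0 members. The 5 genes were Gm35082, St6galnac2, BC018473 and Prss34, higher in TLR9-/- cells, and Trim12a, lower. Prss34, a basophil protease gene, stood at 388 and 245 against 20.9 and 6.69 CPM. Basophils were not among the other lineages checked, and the part of basophil RNA in this difference was not tested. The other members were too low to be tested. With the library number as a block, edgeR called 1 of the 19 members (Trbv15) and 146 genes (1.65%). At an unadjusted p below 0.05 there were then 7 members and 764 genes (8.62%). The labels do not tie library numbers to the experiments.

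Trbv13-2 stood at 111 and 79.3 CPM in TLR9-/- cells and at 69.6 and 60.2 CPM in WT cells. Both TLR9-/- libraries were above both WT libraries. The log2 fold change was 0.54 (SE 0.27, edgeR adjusted p = 0.991). Over this fit and its alternatives it ranged from 0.15 to 0.77. Among the other tested members, Trbv2, Trbv12-1, Trbv13-1, Trbv15, Trbv19 and Trbv31 also had both TLR9-/- libraries above both WT libraries. No tested member was ordered in reverse. How many of all genes were ordered in this way was not counted. Trbv1 stood at 76.7 and 40.1 against 50.7 and 25.4 CPM (log2 fold change 0.59, SE 0.43, adjusted p = 0.991), and its groups overlapped. For Trbv1 the sign turned without the cells of other lineages (−0.14) and when cells with a UMI were counted (−0.013). Trbv15 stood at 39.9 and 44.1 against 29.8 and 6.69 CPM, where WT library 2 was far below the others (log2 fold change 1.13, SE 0.51). The change of Trbv15 was 0.49 without WT library 2, 2.67 without WT library 1 and 0.24 when cells with a UMI were counted. For Trbv1 it was 0.20 without WT library 2. Trbv12-2 had 20.8 and 6.01 against 39.8 and 9.36 CPM (−0.94, SE 0.72), and without WT library 1 its change was 0.53. Of the 19 members, 16 had a positive and 3 a negative fold change, with a median of 0.54 against −0.02 over all genes. This median was 0.28 over 37 members without WT library 2 and 1.66 over 35 members without WT library 1. The filter on low counts was rerun in these fits and let in 18 and 16 Trav segments, against 1 before. These medians therefore cover other members, and their move cannot be put down to the WT library kept. The median also differed with the cells and the unit, again over other sets of members. It was 0.13 over 16 members (10 positive and 6 negative) in cells with a constant gene, 0.30 over 16 (9 and 7) without cells of other lineages, and 0.09 over 11 (6 and 5) when cells with a UMI were counted in place of UMIs.

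In CD8 T cells, 10 Trbv segments were tested and 0 were called, as were 0 of 2956 genes (0.0%), while DESeq2 called 1 gene and 0 members. At an unadjusted p below 0.05 there were 3 members, against 145 genes (4.91%). Trbv1 stood at 161 and 138 CPM in TLR9-/- cells against 86.0 and 11.7 CPM in WT cells (log2 fold change 1.52, SE 0.59, edgeR adjusted p = 0.894). Trbv15 stood at 91.4 and 76.8 against 28.7 and 0 CPM (2.39, SE 0.74). Without WT library 2 the changes were 0.79 for Trbv1 and 1.53 for Trbv15. In the opposite direction, Trbv20 stood at 7.41 and 3.07 against 57.4 and 70.3 CPM (−3.42, SE 0.87). The groups did not overlap for these 3 segments, but they were taken by their unadjusted p, so this adds no support. The share of all genes without overlap was not counted. Few cells carried the 3 segments: the CD8 UMIs of Trbv20, which was chosen after its values were seen, numbered 3, 1, 6 and 6 by library, from 2, 1, 2 and 1 assigned cells. Over all Cd3-positive cells Trbv20 overlapped between genotypes (13.6 and 8.82 against 12.9 and 16.05 CPM). Trbv13-2 stood at 111 and 157 against 19.1 and 141 CPM, so WT library 1 alone was low (0.82, SE 0.67). Without WT library 2, which had Camp in 48.1% of its CD8 cells against 5.88% to 13.4% in the other libraries, 3 of 15 members tested were called: Trbv3, Trbv12-1 and Trbv13-2, the last with a log2 fold change of 2.76 (edgeR adjusted p = 0.0183). In the same fit 56 of 4995 genes were called (1.12%). WT library 1 then stood alone for its genotype and was assumed to vary like the TLR9-/- libraries. Without WT library 1 the change of Trbv13-2 was −0.030.

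WT library 2 had 7 CD4 and 6 NK-like cells, under the 10 set as the minimum, so neither class was tested by genotype under its own gate. With CD4 cells taken by Cd4, Cd40lg, Foxp3, Tnfrsf4 or Icos, a gate chosen after seeing the data, 6 Trbv segments were tested. Trbv13-2 stood at 242 and 232 CPM in TLR9-/- cells and at 179 and 264 CPM in WT cells (log2 fold change 0.17, SE 0.31), with overlapping groups. Of the 6 members 0 were called, with 0 of 2772 genes called (0.0%) and 113 at an unadjusted p below 0.05 (4.08%). For NK-like cells with any constant gene, Trbv1, Trbv13-2 and Trbv17 were tested and 0 were called, against 6 of 2598 genes (0.231%), with 152 (5.85%) at an unadjusted p below 0.05. Trbv13-2 stood there at 158 and 47.9 CPM against 126 and 320 CPM (−0.87, SE 0.62). WT library 2 was the highest, and no fit without it was run.

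Classes were then compared within each mouse, with the library as a block. The minimum of 10 cells was not asked for here, so the 7 CD4 and 6 NK-like cells of WT library 2 were used. Between CD8 and CD4 cells 1309 genes were tested, of which 5 (0.382%) were called, with 132 (10.1%) at an unadjusted p below 0.05. Besides Cd8a, Cd8b1 and Cd4, which are the gate itself, these were Klrd1, a natural killer receptor chain, higher in CD8 cells, and Ly6a, lower. Only Trbv1 and Trbv13-2 were abundant enough to be tested, and 0 were called by edgeR or by DESeq2, which gave no adjusted p for 1243 genes. Trbv13-2 in CD8 and CD4 cells stood at 134 and 135 CPM in TLR9-/- library 1, 193 and 477 in TLR9-/- library 2, 22.8 and 185 in WT library 1, and 169 and 0 in WT library 2. It was thus lower in CD8 cells in 3 of 4 libraries, though by less than 1 CPM in the first (log2 fold change −0.88, SE 0.50, adjusted p = 0.632). For Trbv1 the change was 0.77 (SE 0.57, adjusted p = 0.734).

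Between NK-like cells and CD4 and CD8 cells together, 15 of 1343 genes (1.12%) were called, and 84 (6.25%) had an unadjusted p below 0.05. Of the called genes, Klrb1c (higher) and Cd8a and Cd8b1 (lower) are the gate itself. Xcl1, Klre1 and Il2rb, genes of natural killer cells, were among the others higher in NK-like cells. Lyz2, Camp and Ngp, genes of myeloid cells, were among the others that were lower. Trbv13-2 stood at 406 against 130 CPM in TLR9-/- library 1, 22.6 against 288 in TLR9-/- library 2, 262 against 94.0 in WT library 1 and 376 against 145 in WT library 2. It was higher in NK-like cells in 3 of 4 libraries and not called (log2 fold change 0.46, SE 0.70, edgeR adjusted p = 0.999). The NK-like values of TLR9-/- library 2 and WT library 2 came from 11 and 6 cells, with 38 and 13 UMIs of all Trbv segments together. Single UMIs therefore weigh heavily in them. Without TLR9-/- library 2 the change was 1.54 (SE 0.30, edgeR adjusted p = 0.00599), in a fit that called 63 of 1365 genes (4.62%). Without TLR9-/- library 1, or with any constant gene in the gate, it turned negative (−0.32 and −0.37). Trbv1, with 0.34 (SE 0.55), was not called either, and DESeq2 called 28 genes and 0 members.

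The other genes of the receptor pathway, a list of 29, gave the setting for the segments. In the Cd3-positive cells 27 were tested, 0 were called and 6 had an unadjusted p below 0.05, with a median log2 fold change of 0.15. Over all 8861 genes of this edgeR fit, 335 (3.78%) had an unadjusted p below 0.05. The delta constant gene Trdc stood at 52.6 and 44.9 CPM in TLR9-/- cells and at 17.9 and 18.7 CPM in WT cells (log2 fold change 1.41, SE 0.29, edgeR adjusted p = 0.410). The gamma constant gene Tcrg-C4 stood at 27.1 and 28.5 against 8.95 and 8.02 CPM (1.69, SE 0.34, adjusted p = 0.410). Trdc and Tcrg-C4 did not overlap between the genotypes and neither was called. Other genes of the list, among them Tcrg-C1, Lck and Rag1, did not overlap either. The share of all genes without overlap was not counted. The other gamma constant genes changed less. Tcrg-C1 stood at 28.4 and 23.2 against 13.9 and 16.05 CPM (0.79, SE 0.33). Tcrg-C2 stood at 27.6 and 12.8 against 21.9 and 20.1 CPM (−0.06, SE 0.44), and its groups overlapped. Rag1, a subunit of the recombinase that cuts the V segments, was lower at 3.39 and 1.60 against 13.9 and 20.1 CPM (−2.72, SE 0.53, adjusted p = 0.410). The B lineage gene Cd79a was in 11.1% and 8.30% of these cells against 19.7% and 22.9%, and the part of B lineage cells in the difference of Rag1 was not tested. The kinase gene Lck stood at 232 and 210 against 147 and 120 CPM (0.72, SE 0.24, adjusted p = 0.991). In CD8 cells 20 of the 29 genes were tested and 0 were called, and in the wider CD4 gate 19 and 0.

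Segments shared with the delta chain were more often accompanied by Trdc than other Trav segments in every library. Of 10 dv segments 9 were members, with 143 UMIs in Cd3-positive cells (78, 52, 11 and 2), 18.4% of Trav UMIs. Of 83 cells with a dv UMI, 26 also held a UMI of Trdc (31.3%, exact 95% binomial interval 21.6% to 42.4%). The other 63 Trav segments gave 12 of 347 cells (3.46%, 1.80% to 5.96%) and the Trbv segments 19 of 902 (2.11%, 1.27% to 3.27%). By library, 15 of 46, 8 of 29, 2 of 6 and 1 of 2 dv cells held Trdc, against 5 of 137, 6 of 124, 0 of 70 and 1 of 16 cells with another Trav segment. The mean difference over the 4 libraries was 32.2 ± 8.84 percentage points (SD, higher in 4 of 4 libraries; exact sign-flip permutation test, two-sided, p = 0.125, the smallest that 4 libraries allow). Trav13-4-dv7 was found in 20 cells, of which 10 held Trdc, 16 held Trdc or a gamma constant gene, 2 were CD4 and 0 CD8. Trav15-1-dv6-1 was found in 13 cells, of which 8 held Trdc, 11 held Trdc or a gamma constant gene, and 0 were CD4 or CD8.

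**Figure D3:**
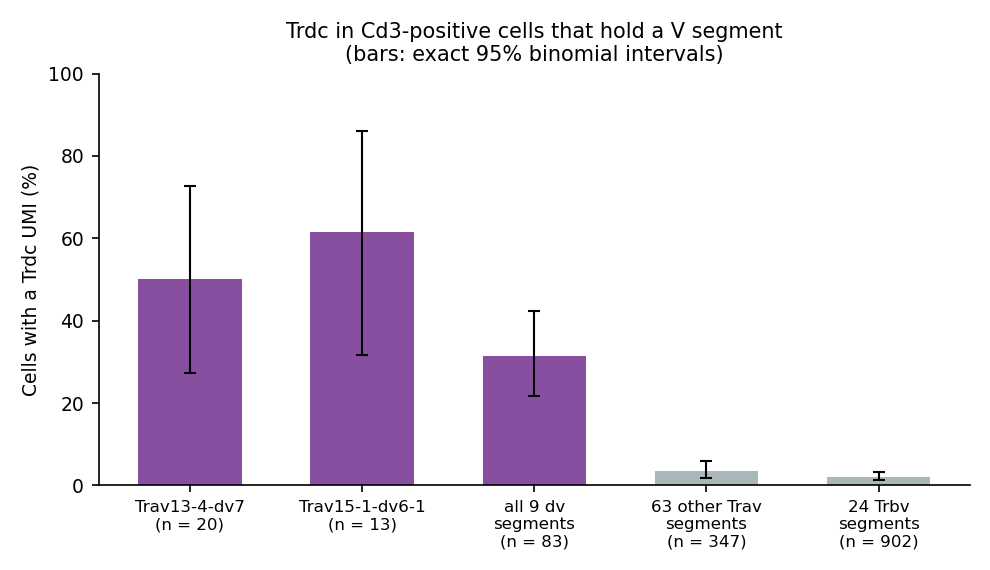
Percentage of Cd3-positive cells with a UMI of the named segment or group of segments that also hold a UMI of Trdc, over the 4 libraries together, with exact 95% binomial intervals (counting error only). The bars of Trav13-4-dv7 and Trav15-1-dv6-1 stand at 50% and 61.5%, all 9 dv segments at 31.3%, and the other Trav and the Trbv segments below 4%.

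Alpha and beta segments could be paired in 281 cells (113, 95, 58 and 15). A combination was seen in more than 1 cell of the same library 16 times, in 34 cells, with at most 3 cells per combination (8, 6, 2 and 0 combinations by library). Trav13-1 with Trbv13-2 was seen in 3 cells of TLR9-/- library 1 and 2 cells of TLR9-/- library 2, and Trav10 with Trbv13-2 in 2 cells each of TLR9-/- library 2 and WT library 1. Trav8d-2 with Trbv13-3 was seen in 3 cells of TLR9-/- library 2. These combinations were chosen after their values were seen. Whether cells with the same combination belonged to the same clone, or were doublets, was not tested.

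Cells without a Cd3 UMI, 37447 in number, held 551 V segment UMIs, 123 of Trav and 428 of Trbv (264, 108, 140 and 39 V segment UMIs by library). Of these, 494 were in cells that also lacked Trac, Trbc1, Trbc2, Cd247, Lck and Bcl11b. Trbv1 and Trbv13-2 stood out among the Trbv segments with at least 50 UMIs in Cd3-positive cells: 24.03% of the UMIs of Trbv1 (111; 53, 35, 10 and 13) and 20.2% of those of Trbv13-2 (145; 65, 46, 23 and 11) lay in such cells. The next were Trbv12-2 at 13.3% and Trbv20 at 13.2%, while Trbv13-1 and Trbv13-3 had 2.53% and 2.94%. The lineages that held them differed, by gates of at least 2 UMIs of marker genes that were chosen after seeing the data. Trbv13-2 reached 7.47 CPM in 591 cells with the platelet and megakaryocyte genes Pf4, Itga2b or Clec1b (33 UMIs; 13, 16, 2 and 2; exact 95% Poisson interval 5.14 to 10.5). It reached 7.19 CPM in 768 cells with the basophil protease genes Mcpt8 or Prss34 (35 UMIs; 11, 16, 8 and 0; 5.01 to 10.0). The gates shared 48 to 69 cells per library. The Mcpt8 gate was also high in other segments: the Trbv segments other than Trbv13-2 and Trbv1 had 30 UMIs there (6.16 CPM, against 0.954 over all cells without Cd3), Trbv3 among them 9 (1.85 CPM), and the Trav segments 23 (4.72 against 0.683 CPM). In the Pf4 gate these numbered 7 for the other Trbv (1.59 CPM) and 10 for Trav (2.26 CPM). The largest count of Trbv13-2 outside Cd3-positive cells, 46 UMIs (2.21 CPM), was in the 5941 cells of none of the lineage gates. In cells with Mpo or Elane, genes of neutrophil precursors, Trbv13-2 was at 0.604 and in cells with Cd79a or Cd79b, of the B lineage, at 0.384 CPM. Cd3-positive cells had 87.8 CPM.

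Trbv1 varied less between the lineage gates than Trbv13-2 but was not even. It was at 0.860 CPM in the cells with Mpo or Elane (64 UMIs; 33, 18, 3 and 10) and at 0.914 in those with Ngp or Camp (45 UMIs), and 1.13 and 1.23 in the gates in which Trbv13-2 was highest, from 5 and 6 UMIs. Trbv13-3, whose exon is printed beside that of Trbv13-2, had 0 UMIs in the Pf4 gate and 2 in the Mcpt8 gate. In Cd3-positive cells 574 UMIs of Trbv13-2 stood beside 264 of Trbv13-3, and outside them 145 beside 8. In the Pf4 and Mcpt8 gates few UMIs of the constant genes accompanied Trbv13-2. Trbc1 and Trbc2 had 4 and 2 in the Pf4 gate and 1 and 0 in the Mcpt8 gate, against 1882 together in Cd3-positive cells. Without any other T-cell gene in the cell, 30 of the 33 and 32 of the 35 Trbv13-2 UMIs of these gates remained. In the cells of none of the lineage gates Trbc1 and Trbc2 had 110 and 51 UMIs (5.28 and 2.45 CPM). Trbv13-2 had 46 there (2.21 CPM). The other Trbv segments together had 172 UMIs outside Cd3-positive cells, numbering 89, 8, 69 and 6 by library, so that the libraries numbered 1 were high in both genotypes. Trbv13-2 was also higher in the libraries numbered 1, by a smaller ratio, and Trbv1 was so in TLR9-/- marrow only.

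**Figure D4:**
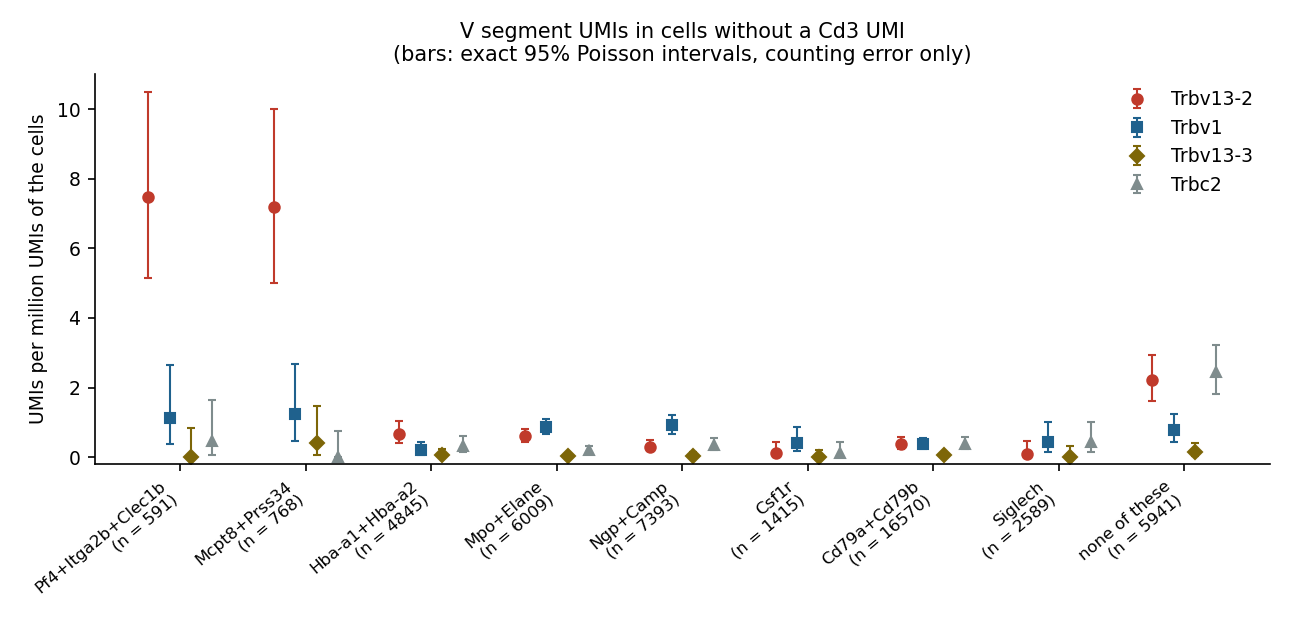
UMIs per 1e6 UMIs of the cells (CPM, vertical axis) of Trbv13-2, Trbv1, Trbv13-3 and the constant gene Trbc2 in cells without a Cd3 UMI, grouped by at least 2 UMIs of the marker genes named on the horizontal axis, 4 libraries together, with exact 95% Poisson intervals (counting error only). Trbv13-2 stands at 7.47 and 7.19 in the Pf4 and Mcpt8 gates and at 0.604 or less in the Mpo, Ngp and Cd79a gates, whereas Trbv13-3 and Trbc2 are below 1 in all of these. In the cells of none of the gates Trbv13-2 is at 2.21 and Trbc2 at 2.45.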

How the data were processed

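UMI counts per gene and cell, the values the authors deposited as 1 matrix per library, had been made by them with Cell Ranger (3.0.1 in the file headers) and STAR on mm10, per the file headers and the submitters' processing notes. Cells with 200 to 10000 genes and at most 10% mitochondrial UMIs were kept (the printed limit of 0.10% was read as a fraction). Cells of 1 mouse are not replicates, so UMIs were summed per library and class and tested with edgeR 4.0.16 in R 4.3.3 (TMM, filterByExpr, glmQLFit and glmQLFTest, two-sided, Benjamini-Hochberg over all genes tested, threshold 0.05), with DESeq2 1.42.0 as an alternative. The fits and functions were tested on simulated data. Segment positions and sequences came from GENCODE M21 on GRCm38. Python 3.11.15 with scipy 1.17.1 gave exact binomial (Clopper-Pearson) and Poisson intervals, which cover counting error only, exact permutation tests, and thinning to 1000 UMIs by the hypergeometric chance of keeping at least 1 UMI. The limit of a count of 0 was taken as 3 cells of the total.

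Named segments were the 10 Trav and 10 Trbv with most UMIs in Cd3-positive cells, any member called, the highest and lowest CD8-minus-CD4 differences among segments in at least 20 cells, those of invariant T cells, the dv group and a receptor pathway list. The members and lists were chosen with earlier results of these data known. Alternatives were other gates, filters, tools, a replicate block and leaving out each library.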

Additional observations from a re-analysis of the deposited data

Results flagged for a closer look

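V segment UMIs were also present in the barcodes that the cell filters left out, which no comparison used. There were 19 such UMIs over the 4 libraries, 9 and 3 in TLR9-/- libraries 1 and 2 and 6 and 1 in WT libraries 1 and 2. They were singled out because they lie outside the main measurement. They were not set against a background level.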

How the results depend on the processing

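Of 96 values of the summary results under alternatives, 83 stayed the same, 6 turned sign, 6 gained calls and 1 count fell by over 1.5 times. Counts were taken as the same when equal or within 1.5 times. Differences in shares or repeat probability needed only the same sign, and the Trbv13-2 share a move under 1 SD. No member was tested between CD8 and CD4 cells by cells with a UMI or without cells of other lineages. The same held between NK-like and other T cells by cells with a UMI. Those counts of 0 could not change. The number of members called in Cd3-positive cells rose from 0 to 1 (Trbv15, log2 fold change 1.17, edgeR adjusted p = 0.0269) with the replicate block, under which 146 genes (1.65%) were called in place of 5, and 7 of 19 members had an unadjusted p below 0.05 against 764 genes (8.62%). The study's 2 experiments each held 1 mouse of each genotype. The labels do not say that library numbers mark them. The library 1 minus library 2 differences of the genotypes correlated with r = 0.34 over 8861 genes. Library 2 also had the higher median of UMIs per cell in each genotype. Whether equal numbers share an experiment was not tested. Without a filter on low counts, 1 of 73 members was called in CD8 cells (Trbv20, adjusted p = 0.0188), 2 of 80 between CD8 and CD4 cells, and 2 of 83 between NK-like and other T cells, against 0.445%, 0.477% and 0.697% of all genes. Leaving out each library gave 0 to 3 members in CD8 cells and 0 to 1 in NK-like against other cells. For CD4 and NK-like cells only other gates could be fitted, and 0 members were called. Genes called ranged from 2 to 146 in Cd3-positive cells, 0 to 56 in CD8 cells, 0 to 62 between CD8 and CD4 cells and 3 to 92 between NK-like and other cells.

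The genotype change of Trbv1 in Cd3-positive cells turned to −0.013 for cells with a UMI and to −0.14 without cells of other lineages. That of Trbv12-2 ranged from −2.06 to 0.53 with each library left out, and that of Trbv13-2 in CD8 cells from −0.030 to 2.76. Between NK-like and other T cells, Trbv1 was −0.67 with any constant gene, −0.33 with a Klrb1c or Nkg7 gate and −0.0070 to 0.77 with each library left out, and Trbv13-2 was −0.37 with any constant gene and −0.32 to 1.54. The difference in repeat probability (percentage points, TLR9-/- minus WT) became −0.25 for Trav by UMIs (0.078 to 2.11 with each library left out), and for Trbv −0.12 with at least 2 Cd3 UMIs, −0.095 by family, −0.37 by UMIs and −0.996 to 1.09 with each library left out. V segment UMIs outside Cd3-positive cells, 551 in all, were 287 to 512 with each library left out, the lowest without TLR9-/- library 1. The causes were not tested.

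Depth limits these results: WT library 2 held 29 Trav UMIs, and 2 libraries against 2 cannot reach an exact p below 0.33.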
